A study of Mus musculus with 16 samples.

Results

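The subject is a set of 10 matrix glycoproteins and proteoglycans: Fn1, Tnc, Vcan, Thbs1, Spp1, Postn, Dcn, Lum, Sparc and Vtn. The members are these symbols, and each was measured by every Affymetrix probe set annotated to its symbol alone. This gave 23 probe sets for 9 of the 10 members, out of 34945 such probe sets and 18193 genes in all. Spp1 (osteopontin, a secreted integrin ligand) had no probe set under its symbol in the annotation used and was not analysed here. Tests used the brightest probe set of each member (averaged across the 16 arrays), and its other probe sets are given beside it.

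A wound is first filled by a provisional matrix, a temporary scaffold of plasma and cellular glycoproteins on which epithelial cells spread and migrate before the basement membrane is restored. Fibronectin is its main adhesive fibre protein. Tenascin C, thrombospondin 1, periostin and SPARC are matricellular proteins, which act mostly on cell adhesion and growth factor signalling, and versican, decorin and lumican are proteoglycans that space or bind matrix fibres. In the airway wall much of this matrix is made by fibroblasts, while injured epithelium is known to make fibronectin and tenascin C itself.

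RNA came from 16 cultures of airway epithelium from C57BL/6 mice at an air-liquid interface, with 1 array per culture. The 4 groups, of 4 cultures each, were wild-type uninjured, wild-type scratched, Mmp7-null (Mmp7-/-) uninjured and Mmp7-null scratched. Mmp7 encodes matrilysin, a secreted metalloproteinase that cleaves matrix and cell surface proteins. All cultures were kept without serum for 24 hours before Trizol extraction, and the scratched ones had received 3 parallel scratches; the time between scratch and harvest and the animal behind each culture are not stated, so p-values measure only the spread between these cultures.

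Levels are log2 of the deposited intensity. Differences are log2 differences from 1 limma model over all 16 arrays, with the model's standard error (SE) and a Benjamini-Hochberg adjusted p-value taken across all 18193 genes; a difference is said to rise or fall where that adjusted p was under 0.05. Control transcripts absent from an array gave a background estimate of 2.97. Mmp7 itself lay between 2.13 and 2.59 on every array, wild-type included, and therefore does not check the genotype labels. The median linear intensity of an array was between 9.36 and 10.2. Spiked-in controls divided the arrays into 3 sets of unstated meaning: 4 Mmp7-null arrays carried Lys, 6 wild-type arrays carried Trpn, and 6 arrays of both genotypes carried Phe. Wild-type scratched 3 and Mmp7-null scratched 1 had the lowest upper quartiles of intensity (115 and 119), and on wild-type scratched 4 the 3′ actin control exceeded the 5′ one by 2.62 on the log2 scale, against 1.53 to 1.93 elsewhere. These 3 arrays are called the doubtful arrays below.

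All 10 airway epithelial marker genes were above background on all 16 arrays. None of the 12 fibroblast markers had a mean above background, and their summed linear intensity was 64.1 to 69.9 in the other groups and 65.0 to 93.6 in the Mmp7-null scratched group. No endothelial marker was above background on any array. Of 12 leukocyte markers, Ptprc and Itgam, which define leukocytes, were below background throughout, whereas Cd68, Lyz2, Cd14 and the macrophage gene Csf1r (group means from 3.31 to 4.09) were above it on all 16 arrays and the macrophage gene Adgre1 on all 4 wild-type scratched arrays, at 2.97 to 3.20. Among epithelial markers, the basal keratin gene Krt5 fell on scratching (by 0.80 in wild-type and 0.45 in Mmp7-null cultures), and the luminal keratin genes Krt8 and Krt18 rose (by 0.51 and 0.60 in wild-type and by 0.41 and 0.38 in Mmp7-null cultures). The ciliated cell regulator Foxj1 was higher in Mmp7-null than in wild-type cultures, scratched (0.93) and uninjured (0.52, adjusted p = 0.023). Krt5 (-0.36, adjusted p = 0.041) and Cdh1 (-0.23, adjusted p = 0.014) were lower in uninjured Mmp7-null cultures. Krt14 was higher in scratched ones (0.53, adjusted p = 0.049). Of these genotype calls, only that of Foxj1 in scratched cultures passed with the spike-in block (adjusted p = 0.0081). Cd68 rose by 1.03 on scratching in wild-type cultures and was lower in scratched Mmp7-null than in scratched wild-type cultures (-0.92), though not past the threshold with the spike-in block (-0.82, adjusted p = 0.065). Its Mmp7-null response minus its wild-type response was -1.12 (adjusted p = 0.043), also lost with the block (adjusted p = 0.069). Of 5 mesothelial markers, 2 were above background on all arrays of each group, and the summed linear intensity of the 5 was 23090 to 28110. The part of these markers in the results on the members was not tested. In RNA of whole cultures, fewer cells of a type and less RNA per cell cannot be told apart.

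Of the 9 measured members, 6 were above background on at least 1 array: Fn1, Tnc, Dcn, Thbs1, Sparc and Postn. The 8 Vcan probe sets read at most 2.745, where Vcan encodes versican. Lum, which encodes lumican and is the neighbour of Dcn in the genome, stayed between 2.39 and 2.49. Vtn, the gene of the plasma adhesion protein vitronectin, stayed between 2.15 and 2.27 on the brighter of its 2 probe sets. These 3 members were therefore not above background in any group, and no fold is given for them.

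**Figure D1:**
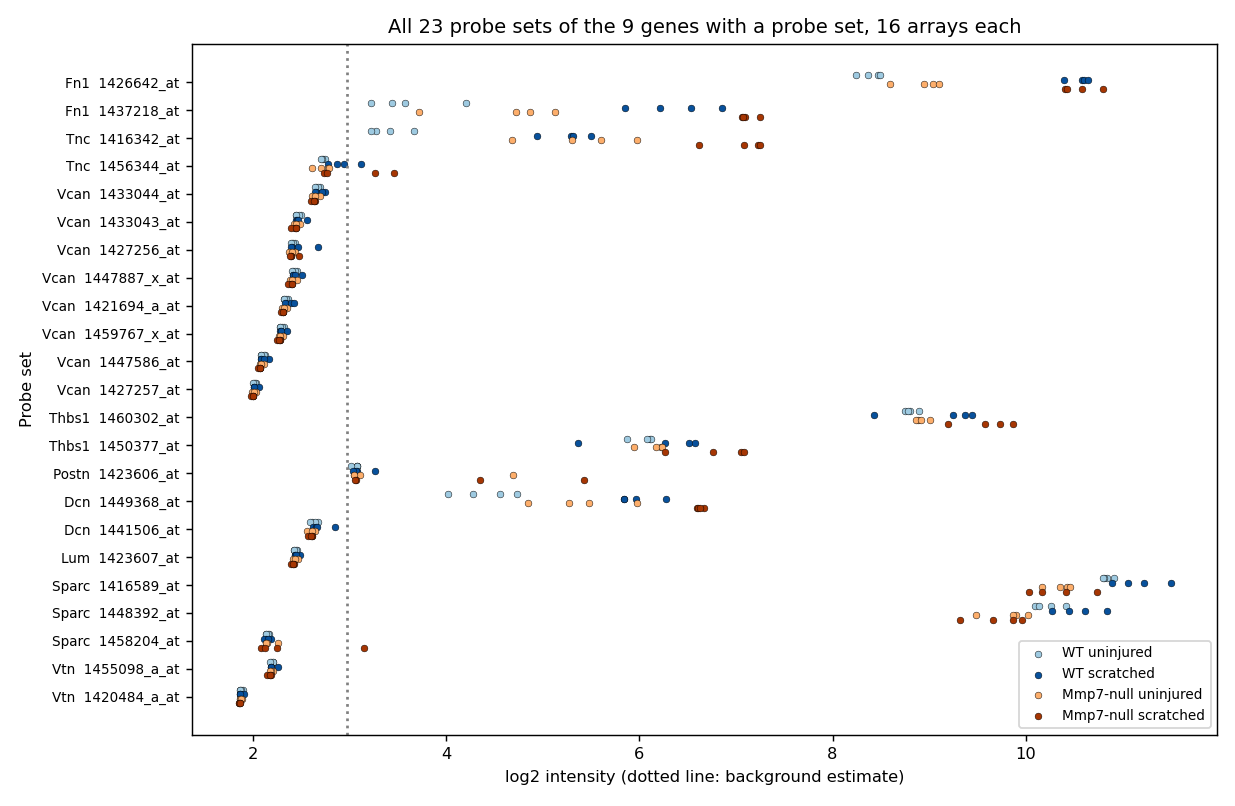
Log2 intensity of all 23 probe sets on all 16 arrays, with 1 point per array coloured by group and the background estimate of 2.97 as a dotted line. The probe sets of Vcan, Lum and Vtn lie left of the line on every array, whereas those leading for Fn1, Tnc, Dcn, Thbs1 and Sparc lie right of it.

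Tnc and Sparc are the members that differed between genotypes in opposite directions, and both have a window in the RefSeq promoter table, so the 250 bases before the start site are shown for each, for Tnc those before the outer of its 2 listed start sites, 5′ to 3′ on the strand of the gene (build GRCm38.p6; Tnc chr4:64047016-64047265, minus strand; Sparc chr11:55420081-55420330, minus strand). Capitals mark the motifs found by a search of both strands for the TATA motif TATAAA, the SP1 motif GGGCGG, the AP-1 motif TGANTCA, the CRE motif TGACGTCA and the TEAD motif GGAATG, none of which overlap in these windows.
Tnc: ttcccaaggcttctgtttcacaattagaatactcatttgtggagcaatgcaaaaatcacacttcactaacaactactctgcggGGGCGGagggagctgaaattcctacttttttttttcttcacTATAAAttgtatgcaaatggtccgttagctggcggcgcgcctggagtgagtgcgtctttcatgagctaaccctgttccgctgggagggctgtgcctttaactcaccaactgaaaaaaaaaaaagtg
Sparc: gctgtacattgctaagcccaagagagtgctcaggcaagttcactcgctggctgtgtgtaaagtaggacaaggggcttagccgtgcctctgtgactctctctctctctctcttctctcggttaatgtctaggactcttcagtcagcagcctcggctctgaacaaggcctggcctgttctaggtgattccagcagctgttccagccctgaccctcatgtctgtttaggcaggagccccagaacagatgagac
The Tnc window held TATAAA 126 bases and GGGCGG 167 bases before this start site, and the same matches lie 205 and 246 bases before the other one, and the Sparc window held none of the 5 motifs. Over 32851 windows of this length, 12.4% held TATAAA, 32.7% GGGCGG, 6.75% TGANTCA, 1.55% TGACGTCA and 12.6% GGAATG. These are matches of letters and not measured sites.

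The first question was which of these genes moved when the epithelium was scratched. Fn1, Tnc and Dcn rose in both genotypes, by 2.35-fold to 4.48-fold, and no measured member fell in either. These were 3 of 9 members in wild-type cultures, where 2.55% of all genes rose, and 3 of 9 in Mmp7-null cultures, where 2.27% rose. Of all genes, 1.14% rose in both. Downward calls took 2.30% and 2.45% of all genes. The median difference over the 9 members was 0.32 in wild-type and 0.50 in Mmp7-null cultures, against 0.01 and -0.02 over all genes.

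Fn1 (Entrez 14268, probe set 1426642_at) encodes fibronectin. In wild-type cultures its log2 intensities were 8.47, 8.24, 8.37 and 8.49 uninjured and 10.40, 10.58, 10.60 and 10.64 scratched. In Mmp7-null cultures they were 9.04, 9.10, 8.59 and 8.95 uninjured and 10.40, 10.43, 10.80 and 10.59 scratched. Every scratched array lay above every uninjured array of either genotype, and the scratched arrays of the genotypes overlapped. Of all genes, 4.21% were separated upward without overlap by the scratch in wild-type cultures, and 4.10% in Mmp7-null cultures. Fn1 rose by 2.16 in wild-type cultures (SE 0.11, 4.48-fold, adjusted p = 1.4e-07) and by 1.63 in Mmp7-null cultures (SE 0.11, 3.10-fold, adjusted p = 6.8e-06). The Mmp7-null response minus the wild-type response was -0.53 (95% interval -0.87 to -0.19), which did not pass over all genes (adjusted p = 0.34).

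The dimmer Fn1 probe set, 1437218_at, moved the same way on scratching. It read 3.44, 3.57, 3.22 and 4.21 in wild-type uninjured and 6.54, 6.86, 6.21 and 5.85 in wild-type scratched cultures. It read 5.13, 3.72, 4.72 and 4.87 in Mmp7-null uninjured and 7.10, 7.07, 7.25 and 7.07 in Mmp7-null scratched cultures. Here too scratched and uninjured arrays did not overlap, and the Mmp7-null scratched arrays were tightly grouped above the wild-type scratched ones. By brightest probe set, the scratch separated 4.21% of all genes upward in wild-type and 4.10% in Mmp7-null cultures. Between scratched genotypes 4.19% were separated upward. The rise was 2.75 (SE 0.29, adjusted p = 0.00013) in wild-type and 2.51 (SE 0.29, adjusted p = 6e-04) in Mmp7-null cultures.

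Tnc (Entrez 21923, probe set 1416342_at) encodes tenascin C, which is scarce in resting adult tissue and appears at wound margins. Its values in wild-type cultures were 3.27, 3.22, 3.42 and 3.67 uninjured and 5.29, 5.32, 5.50 and 4.94 scratched. In Mmp7-null cultures they were 5.98, 5.31, 4.69 and 5.61 uninjured and 7.08, 6.62, 7.23 and 7.25 scratched. The uninjured wild-type arrays were close to background, and the uninjured Mmp7-null arrays covered the range of the scratched wild-type arrays. Tnc rose by 1.87 on scratching in wild-type (SE 0.23, 3.65-fold, adjusted p = 0.00025) and by 1.65 in Mmp7-null cultures (SE 0.23, 3.14-fold, adjusted p = 0.0012). Its second probe set, 1456344_at, read 2.61 to 3.46 and was above background on 3 of 16 arrays, so it gives no further measure of Tnc.

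Dcn (Entrez 13179, probe set 1449368_at) encodes decorin, a small proteoglycan that binds collagen fibrils and TGF-beta. It read 4.56, 4.28, 4.73 and 4.02 in wild-type uninjured and 5.84, 6.27, 5.97 and 5.84 in wild-type scratched cultures. It read 5.98, 4.85, 5.27 and 5.48 in Mmp7-null uninjured and 6.60, 6.67, 6.61 and 6.63 in Mmp7-null scratched cultures. Scratched arrays lay above uninjured ones within each genotype, as for 4.21% of all genes in wild-type and 4.10% in Mmp7-null cultures. The 4 scratched Mmp7-null arrays differed from each other by less than 0.1 on the log2 scale. Dcn rose by 1.58 in wild-type (SE 0.20, 2.99-fold, adjusted p = 0.00031) and by 1.23 in Mmp7-null cultures (SE 0.20, 2.35-fold, adjusted p = 0.0036). Of the 12 fibroblast markers, Pdgfra was above background on 2 of the 4 wild-type scratched arrays (at most 3.09) and on no wild-type uninjured array, and the other 11 were below background on all 8 wild-type arrays. The part of such cells in the Dcn rise was not tested. The other Dcn probe set, 1441506_at, was below background on all arrays. Kera, a cornea-enriched proteoglycan gene that follows Lum in the genome, was below background as well.

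**Figure D2:**
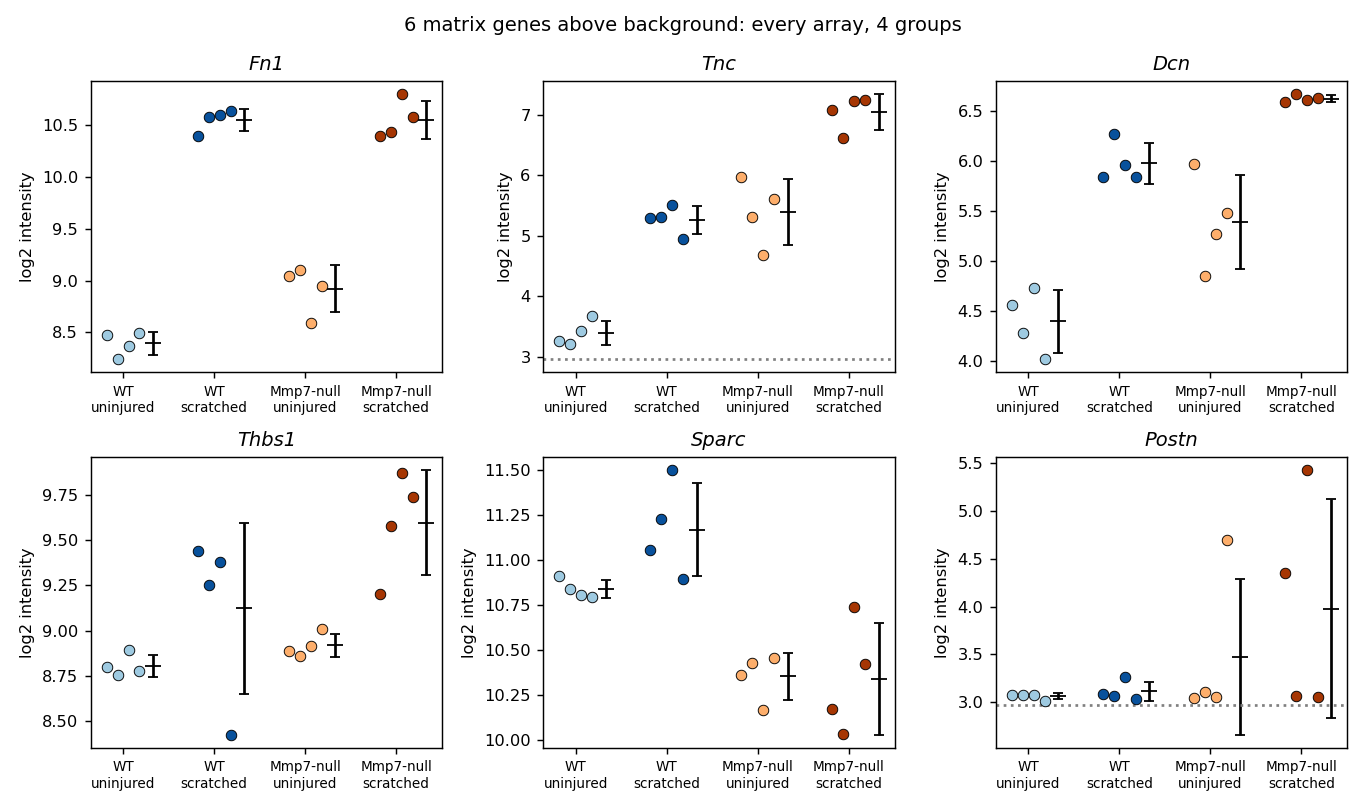
Log2 intensity of Fn1, Tnc, Dcn, Thbs1, Sparc and Postn on every array (1 point per culture, 4 per group), with the group mean and SD beside the points and the background estimate as a dotted line where it falls on the axis; each panel has its own scale, which does not start at 0. Scratched arrays lie above uninjured arrays of the same genotype for Fn1, Tnc and Dcn, and Mmp7-null arrays lie above wild-type arrays of the same state for Tnc.

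Thbs1 (Entrez 21825, probe set 1460302_at) encodes thrombospondin 1, a matricellular activator of latent TGF-beta. In wild-type cultures it read 8.80, 8.75, 8.89 and 8.78 uninjured and 9.44, 9.25, 9.38 and 8.43 scratched. In Mmp7-null cultures it read 8.89, 8.86, 8.91 and 9.01 uninjured and 9.20, 9.58, 9.87 and 9.73 scratched. In wild-type cultures scratched arrays 1 to 3 were above all uninjured arrays and scratched array 4 was below them, while the Mmp7-null groups did not overlap; 4.10% of all genes were separated this way upward in that comparison. Neither difference passed: it was 0.32 in wild-type (SE 0.19, adjusted p = 0.45) and 0.68 in Mmp7-null cultures (SE 0.19, adjusted p = 0.057). Without the 3 doubtful arrays, which include wild-type scratched 4, both passed, at 0.54 (adjusted p = 0.0043) and 0.81 (adjusted p = 0.00033). Leaving out wild-type scratched 4 alone gave 0.55 (adjusted p = 0.019), and leaving out Mmp7-null scratched 1 alone gave 0.81 (adjusted p = 0.032).

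The second Thbs1 probe set, 1450377_at, was also lowest on wild-type scratched 4, with 6.52, 6.58, 6.26 and 5.36 against 5.88, 6.11, 6.12 and 6.08 uninjured. In Mmp7-null cultures it read 6.27, 7.05, 7.09 and 6.76 scratched and 6.22, 6.17, 5.94 and 6.23 uninjured. Its scratch differences were 0.14 (adjusted p = 0.90) and 0.65 (adjusted p = 0.20), and without the 3 doubtful arrays they were 0.50 (adjusted p = 0.038) and 0.82 (adjusted p = 0.0026). A further probe set carries Thbs1 together with another symbol and was left out.

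Sparc (Entrez 20692, probe set 1416589_at) encodes SPARC, a collagen-binding matricellular protein also called osteonectin. Its values in wild-type cultures were 10.91, 10.84, 10.81 and 10.80 uninjured and 11.06, 11.23, 11.50 and 10.90 scratched. In Mmp7-null cultures they were 10.36, 10.43, 10.17 and 10.46 uninjured and 10.17, 10.03, 10.74 and 10.42 scratched. Scratched and uninjured ranges overlapped within each genotype, and all Mmp7-null arrays lay below all wild-type arrays. The share of all genes with that separation over both states was not counted. Within a state, 6.22% (uninjured) and 28.5% (scratched) were separated downward. The scratch difference was 0.33 in wild-type (95% interval 0.02 to 0.64, adjusted p = 0.26) and -0.01 in Mmp7-null cultures (95% interval -0.32 to 0.30, adjusted p = 0.97). The second probe set, 1448392_at, gave 0.32 (adjusted p = 0.42) and -0.12 (adjusted p = 0.78).

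Postn (Entrez 50706, probe set 1423606_at, its only one) encodes periostin, which epithelial cells and fibroblasts make in type 2 airway inflammation. It read 3.01 to 3.27 on all 8 wild-type arrays, just over the background estimate. In Mmp7-null cultures it read 3.05, 3.11, 3.05 and 4.69 uninjured and 4.35, 3.07, 5.43 and 3.05 scratched. Uninjured array 4 and scratched arrays 1 and 3 stood above the rest, and the groups overlapped. No comparison of Postn passed (adjusted p from 0.28 to 0.97).

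Some genes typical of fibroblasts or smooth muscle were also high on 1 or both of those scratched arrays. Most fibroblast markers were not: of the 12, 4 were above background on some Mmp7-null scratched array and 0 on all of them. In that group Col1a1 read at most 3.01, Col1a2 at most 3.18 and Thy1 at most 2.19. Col3a1, a fibrillar collagen of fibroblasts, read 4.92 on Mmp7-null scratched 1 and 4.61 on scratched 3, against 2.66 to 2.77 on the other arrays. Bgn, the decorin relative biglycan, read 5.08 on scratched 1 and 3.26 on scratched 3, close to the 3.31 and 3.32 of Mmp7-null uninjured 3 and 4. Tagln, an actin-binding protein of smooth muscle, read 4.78 and 4.91 on scratched 1 and 3. On Mmp7-null uninjured 4, where Postn was 4.69, Col3a1 read 2.70, so Col3a1 was not high on every array with Postn. Without the 2 arrays with Col3a1 above background, the Postn scratch difference in Mmp7-null cultures was -0.42 (adjusted p = 0.87) in place of 0.50. These 2 arrays were chosen after seeing the data and are the scratched ones with high Postn. The change in Postn thus followed from the choice, and its cause was not tested. Fn1, Tnc and Dcn kept their rise in Mmp7-null cultures without them, at 1.59 (adjusted p = 0.00024), 1.54 (adjusted p = 0.022) and 1.26 (adjusted p = 0.033).

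**Figure D3:**
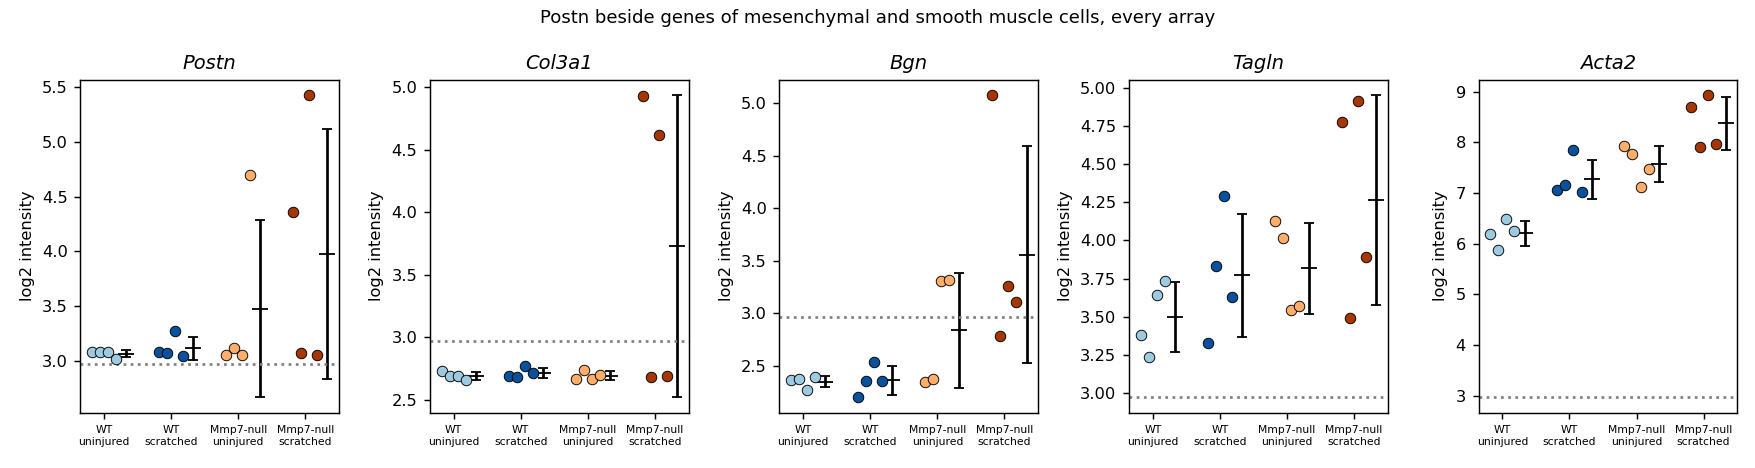
Log2 intensity of Postn beside Col3a1, Bgn, Tagln and Acta2 on every array, with group mean and SD beside the points and the background estimate of 2.97 as a dotted line; each panel has its own scale, which does not start at 0. Mmp7-null scratched arrays 1 and 3 are the only arrays with Col3a1 above background, at 4.92 and 4.61, and both are high for Postn and Tagln.

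The second question was how members differed between Mmp7-null and wild-type cultures in the same state. Tnc was higher and Sparc lower in Mmp7-null cultures in both states, with the Sparc difference past the threshold in scratched cultures. In uninjured cultures 3 of 9 members (Tnc, Dcn and Fn1) were called higher and none lower, against 2.30% of all genes called higher and 2.50% lower. In scratched cultures 1 member (Tnc) was called higher and 1 (Sparc) lower, against 3.29% and 2.92% of all genes. The genotype comparisons use the same arrays as the scratch comparisons, so they are not separate evidence. The median over members was 0.11 in uninjured and 0.00 in scratched cultures, against -0.01 and -0.04 over all genes.

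Tnc had the largest genotype difference of the members. It was higher by 2.00 in uninjured Mmp7-null cultures (SE 0.23, 3.99-fold, adjusted p = 0.00044) and by 1.78 in scratched ones (SE 0.23, 3.44-fold, adjusted p = 0.00054). There was no overlap in either state, as for 5.44% (uninjured) and 4.19% (scratched) of all genes upward. When the 3 spike-in sets entered the model as a block, Tnc kept both calls, at 1.86 (adjusted p = 0.044) and 1.65 (adjusted p = 0.036). Over all genes the block left 57 calls in uninjured and 252 in scratched cultures, against 872 and 1130 without it. A call lost with the block is therefore common to most genes called between genotypes. Within the Phe arrays, where 2 Mmp7-null arrays face 1 wild-type array in each state, the differences were 1.88 and 1.63; with 1 wild-type array these are values without a replicate check. The scratch responses of the genotypes differed by -0.22 (95% interval -0.92 to 0.49, adjusted p = 0.78).

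Of 8 markers of smooth muscle and pericytes, Acta2 alone was called between genotypes, and it was higher where Tnc was higher. The summed linear intensity of these 8 genes was 168 to 211 in wild-type uninjured, 231 to 330 in wild-type scratched, 241 to 356 in Mmp7-null uninjured and 360 to 621 in Mmp7-null scratched cultures. Of the 8 markers, Acta2 (5.87 to 8.93) and Notch3 (5.50 to 6.45) were the brightest, and Notch3 had group means of 6.07 in wild-type uninjured, 5.62 in wild-type scratched, 5.73 in Mmp7-null uninjured and 5.95 in Mmp7-null scratched cultures, which is not the order of Tnc. Myh11 lay at 3.00 to 3.23, and Cnn1 and Cspg4 were below background on all arrays. Acta2, the smooth muscle actin gene, was higher in Mmp7-null cultures by 1.37 uninjured (SE 0.26, adjusted p = 0.0082) and by 1.10 scratched (SE 0.26, adjusted p = 0.023), and the block gave 1.36 (adjusted p = 0.18) and 1.10 (adjusted p = 0.24). The part of these markers in the Tnc difference was not tested. Without the 2 arrays with Col3a1 above background, the Tnc difference in scratched cultures was 1.67 (adjusted p = 0.0092).

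Dcn was higher in uninjured Mmp7-null cultures by 1.00 (SE 0.20, 2.00-fold, adjusted p = 0.011), with no overlap, as for 5.44% of all genes upward. In scratched cultures the difference was 0.65 (SE 0.20, adjusted p = 0.080), and the groups again did not overlap; 4.19% of all genes were separated upward in that comparison. With the spike-in block the uninjured difference was 0.98 and no longer passed (adjusted p = 0.25), and within the Phe arrays it was 0.82. The responses of the genotypes differed by -0.35 (95% interval -0.96 to 0.26, adjusted p = 0.75).

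Fn1 was higher in uninjured Mmp7-null cultures by 0.53 (SE 0.11, 1.44-fold, adjusted p = 0.014), with no overlap, as for 5.44% of all genes upward. In scratched cultures the difference was 0.00 (95% interval -0.24 to 0.24). The call in uninjured cultures was lost with the spike-in block (0.52, adjusted p = 0.26) and without Mmp7-null uninjured 1 (0.49, adjusted p = 0.055), and within the Phe arrays the difference was 0.30. The dimmer Fn1 probe set gave 1.00 (adjusted p = 0.10) in uninjured cultures, where the groups overlapped. In scratched cultures it gave 0.76 (adjusted p = 0.20) without overlap, as for 4.19% of all genes upward. The 2 Fn1 probe sets thus gave different sizes in scratched cultures.

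Sparc was lower in scratched Mmp7-null cultures: the difference was -0.83 (SE 0.14, 1.78-fold lower, adjusted p = 0.0034), and the second probe set gave -0.84 (SE 0.16, adjusted p = 0.0088). No array overlapped between genotypes, although 28.5% of all genes were separated downward in that comparison. In uninjured cultures the difference was -0.49 (SE 0.14, adjusted p = 0.076), again without overlap, where 6.22% of all genes were separated downward. In scratched cultures the difference was -0.80 with the spike-in block and no longer passed (adjusted p = 0.10), and within the Phe arrays it was -0.67. Without the 3 doubtful arrays the second probe set gave -0.64 in scratched cultures (adjusted p = 0.16).

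Thbs1 differed between genotypes by 0.11 in uninjured (adjusted p = 0.98) and by 0.47 in scratched cultures (SE 0.19, adjusted p = 0.17), with overlap in the latter. Without the 3 doubtful arrays the scratched difference was 0.38 (adjusted p = 0.032). The second Thbs1 probe set gave 0.61 in scratched cultures (adjusted p = 0.20), and 0.42 without the doubtful arrays (adjusted p = 0.11). The Postn difference was 0.41 in uninjured and 0.86 in scratched cultures (adjusted p = 0.92 and 0.28), with only the Mmp7-null arrays named above standing clear of background.

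**Figure D4:**
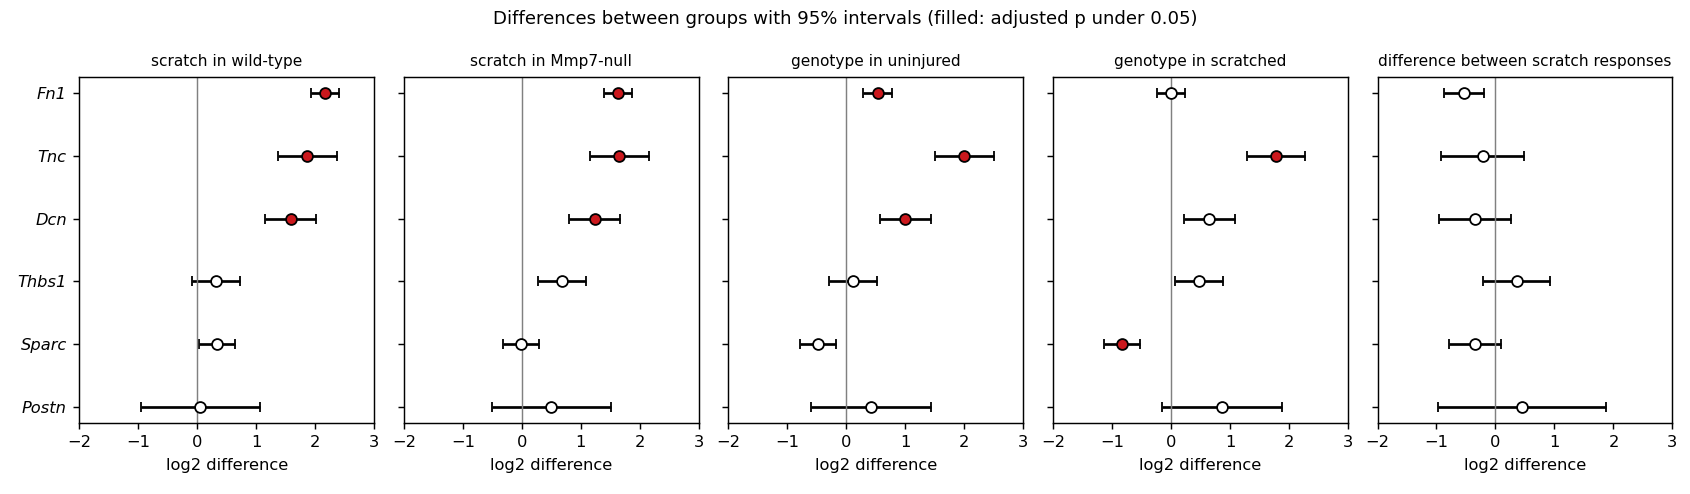
Log2 differences with 95% intervals from limma for the 6 members above background in the 5 comparisons, with filled points where the adjusted p over all genes was under 0.05. Fn1, Tnc and Dcn are filled in both scratch comparisons, Tnc is filled in both genotype comparisons, and no point is filled for the difference between scratch responses.

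The third question was whether the genotypes answered the scratch differently. None of the 9 members passed for that difference, where 0.132% of all genes did. The Fn1 interval given above leaves out 0, but it is not adjusted over all genes (adjusted p = 0.34). The dimmer Fn1 probe set gave -0.24 for this difference (95% interval -1.13 to 0.65, adjusted p = 0.81). The intervals given above for Tnc, Dcn and Sparc (Sparc -0.34, 95% interval -0.78 to 0.09) include 0.

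Receptors of these proteins were measured with 19 genes, of which 14 had a mean above background. On scratching 2 rose and 1 fell in wild-type cultures, and 3 rose and 1 fell in Mmp7-null cultures. Of all genes, 2.55% rose and 2.30% fell in wild-type cultures, and 2.27% rose and 2.45% fell in Mmp7-null cultures. Itgav, the alpha chain of integrins that bind fibronectin, vitronectin and osteopontin, rose by 0.20 (adjusted p = 0.046) and by 0.32 (adjusted p = 0.0046); the first call was lost with the spike-in block (adjusted p = 0.069) and without the 3 doubtful arrays (adjusted p = 0.053). Itgb3, one of its partner chains, was above background on all 4 wild-type scratched arrays (3.77 to 4.65), on 1 wild-type uninjured array, on 1 Mmp7-null scratched array and on no Mmp7-null uninjured array. Itgb3 rose by 1.40 in wild-type cultures (SE 0.29, adjusted p = 0.012) and was lower in scratched Mmp7-null than in scratched wild-type cultures (-1.53, SE 0.29, adjusted p = 0.0062). Without the 3 doubtful arrays these were 1.12 (adjusted p = 0.12) and -1.13 (adjusted p = 0.13), and its other probe set was below background.

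Cd36, a receptor of thrombospondin 1, fell on scratching by 0.53 in wild-type (adjusted p = 0.0069; without the 3 doubtful arrays, adjusted p = 0.079) and by 0.72 in Mmp7-null cultures (adjusted p = 0.0011). Plaur, the urokinase receptor, which binds vitronectin, rose by 0.67 in Mmp7-null cultures (adjusted p = 0.0073), and Cd47, another thrombospondin receptor, by 0.35 (adjusted p = 0.036). Between genotypes, 6 receptors were lower and none higher in uninjured Mmp7-null cultures, with Lrp1 (-0.63), Cd36 (-0.63) and Itgb5 (-0.46) the largest. None of the 6 passed with the spike-in block. The shares of all genes called lower and higher were 2.50% and 2.30% in uninjured cultures, and 2.92% and 3.29% in scratched ones. In scratched Mmp7-null cultures Itgb3, Cd36 (-0.82) and Itga3 (-0.29) were lower and Cd44, the hyaluronan receptor, was higher by 0.35 (adjusted p = 0.037); of these 4, Cd36 passed with the block (adjusted p = 0.039). A dimmer Lrp1 probe set, above background on all 16 arrays, gave 0.38 in uninjured cultures (adjusted p = 0.57), the opposite sign. In scratched Mmp7-null cultures that probe set was higher by 0.98 (adjusted p = 0.017).

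Of 42 other matrix glycoprotein genes, 16 had a mean above background. On scratching 2 rose in wild-type and 3 in Mmp7-null cultures, and none fell. The shares of all genes that rose were 2.55% and 2.27%. Ccn1 and Ccn2 are matricellular genes that respond quickly to stretch and serum. Ccn1 rose by 1.57 and 1.64 (adjusted p = 2.8e-06 and 8.8e-06) and Ccn2 by 0.61 and 0.81 (adjusted p = 0.00026 and 7.2e-05). Of the dimmer Ccn1 probe sets, 1442340_x_at and 1457823_at gave -0.08 and -0.40 in Mmp7-null cultures, unlike the probe set used. Igfbp3 rose by 0.46 in Mmp7-null cultures (adjusted p = 0.047), a call lost with the spike-in block (adjusted p = 0.064).

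Between genotypes, 4 of these 42 genes were lower in Mmp7-null cultures in each state and none was higher, each by its brightest probe set. The shares of all genes called lower were 2.50% in uninjured and 2.92% in scratched cultures. Spock2, a testican proteoglycan whose protein shares domains with SPARC, was lower in both states (-1.93 in each, SE 0.25, adjusted p = 0.00075 and 0.00048). Fbln5, an elastic fibre protein, was lower too (-0.86 and -0.58, adjusted p = 0.00098 and 0.0076), as was Igfbp7 (-0.54 and -0.66, adjusted p = 0.010 and 0.0023). With the spike-in block none passed in uninjured cultures and Spock2 alone passed in scratched ones (-1.87, adjusted p = 0.039). The dimmer Ccn1 probe sets 1442340_x_at and 1457823_at were higher in uninjured Mmp7-null cultures (0.91 and 1.05, adjusted p = 0.028 and 0.0082). In scratched cultures they gave -0.21 and -0.30 (adjusted p = 0.50 and 0.33). A further dimmer Ccn1 probe set, 1438133_a_at, gave -0.25 in uninjured cultures (adjusted p = 0.85).

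Among 18 other matrix proteoglycan genes, Ogn, the small leucine-rich proteoglycan osteoglycin and a relative of Dcn, had differences opposite in sign to those of Dcn. It fell by 0.61 on scratching in wild-type cultures (SE 0.14, adjusted p = 0.021). It was lower in Mmp7-null cultures, uninjured (-1.09, SE 0.14, adjusted p = 0.00075) and scratched (-0.97, SE 0.14, adjusted p = 0.00093), where Dcn was higher by 1.00 and 0.65. The spike-in block gave -1.11 (adjusted p = 0.052) and -0.99 (adjusted p = 0.042). A dimmer Ogn probe set, 1419662_at, was called in none of these comparisons. It gave -0.76 on scratching in wild-type cultures (adjusted p = 0.33), and between genotypes -1.10 uninjured and -1.02 scratched (adjusted p = 0.12 and 0.13). Esm1 rose by 0.38 in Mmp7-null cultures (adjusted p = 0.047), and Aspn was lower in scratched Mmp7-null cultures (-0.24, adjusted p = 0.012). Neither passed with the spike-in block (adjusted p = 0.078 and 0.065) or without the 3 doubtful arrays (adjusted p = 0.13 and 0.059).

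Enzymes that make hyaluronan or crosslink matrix were measured with 22 genes. On scratching 3 rose and 1 fell in wild-type cultures, and 1 rose and 1 fell in Mmp7-null cultures. Over all genes 2.55% rose and 2.30% fell in wild-type cultures, and 2.27% rose and 2.45% fell in Mmp7-null cultures. Lox, the lysyl oxidase that crosslinks collagen and elastin, rose by 0.43 and 0.68 (adjusted p = 0.033 and 0.0024). Has2, a hyaluronan synthase, rose by 0.68 in wild-type cultures (adjusted p = 0.037) and Tgm2, a transglutaminase that crosslinks fibronectin, by 0.33 (adjusted p = 0.00094), while P4ha2, a collagen prolyl hydroxylase subunit, fell by 0.44 and 0.32 (adjusted p = 0.0072 and 0.046). The wild-type call of Lox was lost with the spike-in block (adjusted p = 0.062) and without the 3 doubtful arrays (adjusted p = 0.052), as was the Mmp7-null call of P4ha2 (adjusted p = 0.068 and 0.14), and Has2 missed the threshold without those arrays (adjusted p = 0.05). In each state 4 of the 22 were lower and none higher in Mmp7-null cultures, with Loxl4 (-0.66 and -0.69) and Tgm1 (-0.59 and -0.60) in both. None passed with the spike-in block. Over all genes 2.50% were called lower in uninjured and 2.92% in scratched cultures.

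Of 24 collagen genes, 2 rose and 2 fell on scratching in wild-type cultures and none passed in Mmp7-null cultures. Over all genes 2.55% rose and 2.30% fell in wild-type cultures. Col8a1, a short-chain collagen, rose by 1.46 (SE 0.23, adjusted p = 0.0018) and Col5a2, a fibrillar collagen chain, by 1.32 (SE 0.22, adjusted p = 0.0031). Col4a3 and Col4a4, basement membrane chains, fell by 0.51 and 0.47 (adjusted p = 0.044 and 0.027). They were also lower in Mmp7-null cultures, uninjured (-0.98 and -0.84, adjusted p = 0.0011 and 0.0010) and scratched (-0.81 and -0.71, adjusted p = 0.0024 and 0.0019), and both passed with the spike-in block in each state (adjusted p from 0.042 to 0.047). The fall on scratching was not called for either without the 3 doubtful arrays (adjusted p = 0.25 and 0.15), and that of Col4a3 was not called with the block (adjusted p = 0.068).

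**Figure D5:**
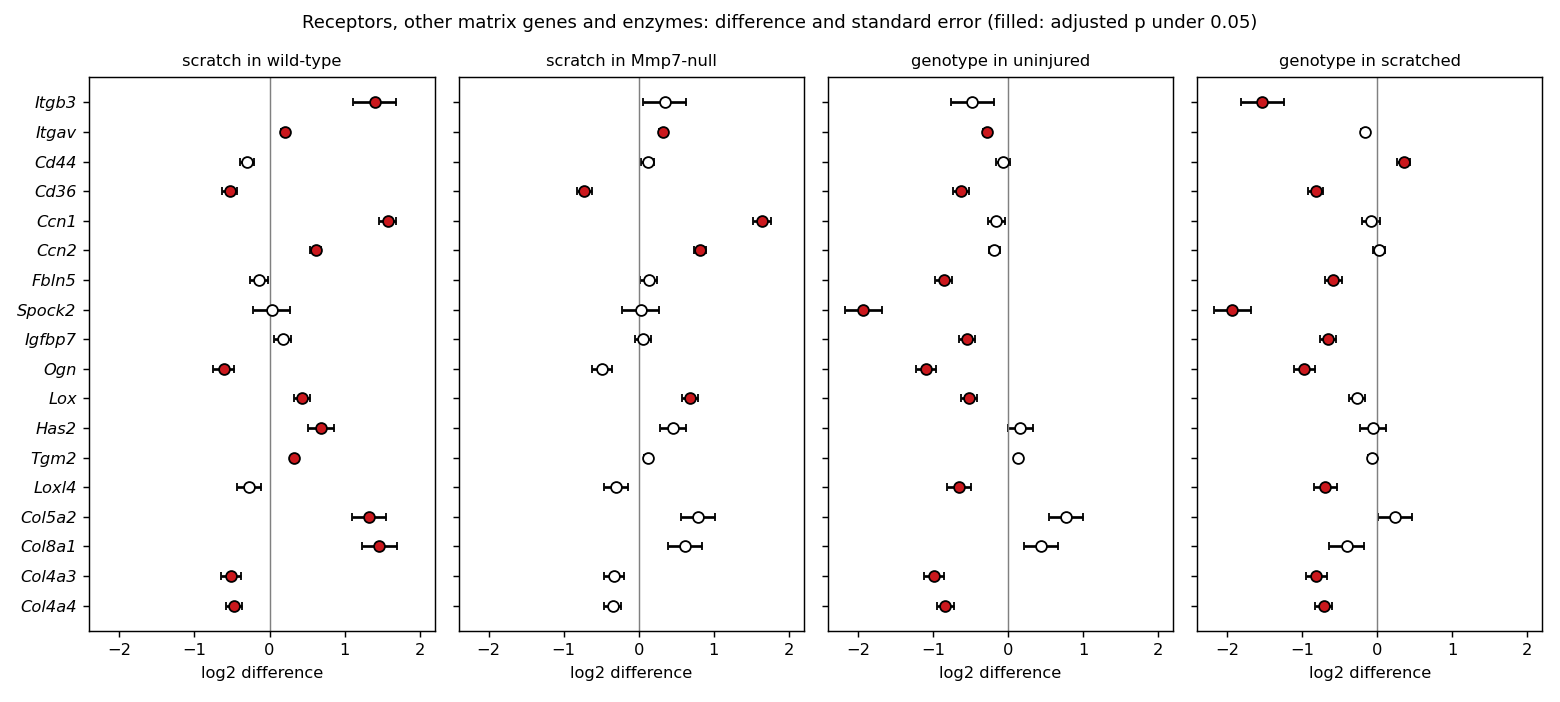
Log2 differences with standard errors for receptors, other matrix genes, enzymes and collagens in the scratch and genotype comparisons, with filled points where the adjusted p over all genes was under 0.05. Ccn1 is filled to the right in both scratch comparisons, and Spock2, Ogn, Fbln5, Col4a3 and Col4a4 are filled to the left in both genotype comparisons.

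Likeness of pattern was measured as the root mean square difference between 2 genes' 16 log2 values after centring each gene on its mean, over 11655 genes with a mean above background. For Fn1 the nearest genes were Fabp5 (0.27), Calcb (0.28) and Cenpf (0.31), against a spread of 0.98 for Fn1 itself. For Dcn they were Ccr2 (0.28), Lgals1 (0.38) and Mt2 (0.39), against 0.86. For Sparc they were Igfbp7 (0.14), Pxdc1 (0.18) and Npr3 (0.19), against 0.40. Tnc had no gene as near: Lgals1 (0.58), Acta2 (0.60) and Fst (0.64) were closest, against 1.33. The 16 points of each pair share the same libraries and groups, so these distances are descriptions.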

How the data were processed

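Total RNA of 16 mouse airway epithelial cultures was hybridised to Affymetrix arrays, 1 per culture. The authors deposited probe set intensities on a linear scale, made with RMA per the submitters' processing notes, with version and settings not given in the sources used here. The table holds 45101 probe sets, although the labels name the smaller 430A 2.0 array. Annotation to 1 gene symbol held for 34945 probe sets, several symbols for 932 and none for 9160; 64 control probe sets were left out. The deposited intensities were converted to log2 without further normalization or filter, and each of 18193 genes was represented by its brightest probe set. Tests used limma 3.58.1 (lmFit and eBayes) under R 4.3.3, with a mean per group and 12 residual degrees of freedom, two-sided, for 5 comparisons. P-values were adjusted by Benjamini-Hochberg over all genes at a threshold of 0.05; second probe sets were adjusted over all 34945. The script was tested on simulated data. The background estimate of 2.97 is the 95th percentile of 162 log2 values of absent control transcripts. The number of arrays limits the precision: the median SE over genes above background was 0.10 for scratch and genotype differences.

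The members and the lists were chosen with earlier results of these data known. Named are all members, up to 3 called genes per list, direction and comparison with the largest difference, and the 3 genes nearest in pattern to each called member; marker genes are named for their level. Alternatives were the replicate number and the spike-in set as blocks, the 8 arrays compared, a filter dropping the dimmest 40% of genes, other probe set rules, variance settings, weights and scaling, an offset of 16, and leaving out arrays.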

Additional observations from a re-analysis of the deposited data

Results flagged for a closer look

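In 5 of 44 groups of 4 arrays, 1 array stood apart from the other 3 by more than the 95% critical value of Dixon's test, which chance exceeds in about 1 of 20 groups. Postn read 4.69 on Mmp7-null uninjured 4, against 3.05 to 3.11 on the other arrays of that group. It read 3.01 on wild-type uninjured 4, against 3.08 on the others, all close to background. The third Sparc probe set, 1458204_at, read 3.15 on Mmp7-null scratched 1, against 2.08 to 2.25, and 2.26 on Mmp7-null uninjured 2, against 2.14 on the others and below background. The second Thbs1 probe set, 1450377_at, read 5.88 on wild-type uninjured 1, against 6.08 to 6.12. No array was flagged for more than 1 probe set, and none of the flagged values belongs to Fn1, Tnc or Dcn.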

How the results depend on the processing

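The rises of Fn1, Tnc and Dcn on scratching in wild-type cultures passed under all alternatives run. In Mmp7-null cultures those of Tnc and Dcn were lost within the Lys arrays (1.52 and 1.20) and within the Phe arrays (1.78 and 1.27), each with 2 arrays per group, where 1 member, Fn1, was called in either. For genotype the spike-in block left 1 member called in uninjured and 1 in scratched cultures (Tnc in both). Over all genes it left 57 and 252 calls, against 872 and 1130 without it. The Phe arrays, chosen after seeing the data, hold 1 wild-type array per state, so calls within them say nothing about stability. The cause was not tested. Tested on the 8 arrays compared alone, Dcn was lost in uninjured (adjusted p = 0.076) and called in scratched cultures (adjusted p = 0.019), and Sparc the reverse (adjusted p = 0.011 and 0.066). With the dimmest 40% of genes removed, Thbs1 on scratching in Mmp7-null cultures (adjusted p = 0.027), Sparc in uninjured (adjusted p = 0.038) and Dcn in scratched cultures (adjusted p = 0.036) passed, as fewer genes were tested.

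Signs turned only where the difference was not called. Sparc on scratching in Mmp7-null cultures was 0.0352 with the mean of its probe sets, 0.037 after repeated quantile normalization, 0.0751 within the Phe arrays and 0.0456 without the doubtful arrays, and ran from -0.145 to 0.0912 when single arrays were left out. Fn1 between scratched genotypes was 0.38 with the mean of its probe sets, 0.0057 with array weights, 0.0391 after quantile normalization, 0.0334 with arrays centred on their medians, 0.22 within the Phe arrays and 0.12 without the doubtful arrays, and ran from -0.0825 to 0.0506 with single arrays left out. Postn turned with array weights (-0.16 for scratch in Mmp7-null cultures, -0.17 for the difference between responses). Without the 2 arrays with Col3a1, chosen after seeing the data and both high in Postn, it was -0.42 and -0.47, and -0.0538 between scratched genotypes. With single arrays left out the Postn difference between responses ran from -0.0364 to 0.855. The Tnc difference between responses was 0.30 with an offset of 16 before log2. The cause was not tested.

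With the replicate number as a block, no member gained or lost a call: 3, 3, 3, 2 and 0 members were called, and Tnc differed between uninjured genotypes by 2.00 (adjusted p = 0.002). Over all genes the block called 14 for the difference between responses, against 24. Among the other genes named, the block lost the wild-type scratch calls of Itgav, Has2, Lox, Col4a3 and Col4a4, the Mmp7-null ones of Igfbp3 and Esm1, and the genotype calls of Cd44 and Krt14. Cd68 lost its call for the difference between responses (adjusted p = 0.11). Krt5 between uninjured genotypes stood at adjusted p = 0.05. Deviations of same-numbered arrays from their group means had correlations from -0.22 to 0.31, most of them negative. The highest was for replicate 3 in wild-type scratch, against at most 0.0575 with other numbers. The labels name no pairing, and correlations of this size cannot decide whether the numbers pair the cultures.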
